A study of Caenorhabditis elegans with 12 samples.

Results

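*atfs-1(et18)* worms were compared with the wild-type worms of the same batch in their titles, called an experiment here. The titles do not say whether the groups were grown or sequenced together. The comparison rests on 6 of the 12 libraries in the deposited table, 3 of *atfs-1(et18)* and 3 of wild type (strain N2), taken by the genotype and batch in their labels. Of the 46739 genes in the table, 15639 had enough reads to be tested. Each library was made from total RNA of whole untreated L4 larvae, the last larval stage, on *E. coli* food. The labels name OP50 as that strain and the study's methods for worm RNA name HT115, so the food cannot be settled from the sources used here. Both groups share the N2 background, and the *et18* worms carry an amino acid substitution in the mitochondrial targeting sequence of ATFS-1. The strain came from another laboratory, and the allele was isolated in a screen for resistance to statins. Whether it was outcrossed is not given in the sources used here, so changes that come with the strain and changes that come with the allele cannot be told apart. The labels only number the replicates, the study's text describes its experiments as biologically independent, and p-values measure the spread between these samples.

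ATFS-1 is a bZIP transcription factor with both a mitochondrial targeting sequence and a nuclear localization sequence. In unstressed worms most of it is imported into mitochondria and degraded, and when import falters it enters the nucleus and turns on the mitochondrial unfolded protein response (UPRmt). That response is known for chaperones and proteases, and also for detoxification enzymes, metabolic enzymes and innate immune effectors, which are made largely in the intestine and epidermis. The account here follows the families outside the mitochondrion.

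Total counts were 24090660 to 26381301 in the *atfs-1(et18)* libraries and 27600331 to 37050803 in the wild-type libraries. Genes were compared with edgeR's quasi-likelihood test with Benjamini-Hochberg adjustment over all genes tested, and a gene is said to rise or fall where its adjusted p was under 0.05. Levels are given as CPM, counts divided by a library size that trimmed mean of M-values (TMM) factors had adjusted. In all, 2648 of 15639 genes (16.9%) passed, of which 1473 (9.42%) were higher and 1175 (7.51%) were lower in *atfs-1(et18)* worms. The median log2 fold change over all genes tested was 0.07. Replicate 2 stood apart in both groups: the spread of counts between 2 replicates, as chi-square per degree of freedom over genes, was 115 and 108 for *atfs-1(et18)* replicate 2 against 1 and 3, and 9.54 between those 2, and 14.3 to 35.2 between wild-type libraries. Without *atfs-1(et18)* replicate 2, 4524 of 15867 genes (28.5%) passed, 2727 (17.2%) higher and 1797 (11.3%) lower. The fit without *atfs-1(et18)* replicate 1 gave 997 genes higher and 736 lower. Leaving out *atfs-1(et18)* replicate 3, or wild type replicate 1, 2 or 3, gave 647, 558, 767 and 525 genes higher and 347, 279, 671 and 308 lower. A fit that adds the replicate number as a block called 3202 genes (20.5%), 1674 (10.7%) higher and 1528 (9.77%) lower. The call held in all 6 fits that left out a library for 714 of the 2648 genes, 478 higher and 236 lower.

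Markers of stage moved with replicate 2. The 6 vitellogenins, yolk proteins that the adult intestine secretes for oocytes, summed to 5388, 21939 and 3296 CPM in *atfs-1(et18)* worms, against 1821, 7519 and 1348 CPM in wild-type worms. The 9 oocyte genes summed to 557, 2433 and 673 CPM in *atfs-1(et18)* worms, against 335, 692 and 427 CPM in wild-type worms. The 31 major sperm protein genes, 28 of them tested, summed to 196, 872 and 272 CPM in *atfs-1(et18)* worms, against 190, 430 and 372 CPM in wild-type worms. Replicate 2 was the highest of its group in each of these sums, and the groups overlapped. All 6 vitellogenins and all 9 oocyte genes had a log2 fold change above 0, with medians of 1.19 and 1.34. Their sums were also higher in each *atfs-1(et18)* library than in the wild-type library of the same number. In edgeR 0 of the 6 vitellogenins and 0 of the 9 oocyte genes passed, with 0 and 4 at an unadjusted p under 0.05, and DESeq2 called 0 and 5. In the fit with the block, 3 vitellogenins and 6 oocyte genes rose. The molting regulators, 12 genes that peak as a larva makes its next cuticle, summed to 2161, 913 and 2099 CPM in *atfs-1(et18)* worms, against 2815, 1883 and 2625 CPM in wild-type worms. They were lowest in replicate 2 of each group. All 12 had a log2 fold change below 0, with a median of -0.50. In edgeR 0 of them passed, with 0 at an unadjusted p under 0.05 and 0 by DESeq2, and with the block 4 fell. The part of developmental timing in the differences described here was not tested.

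**Figure D1:**
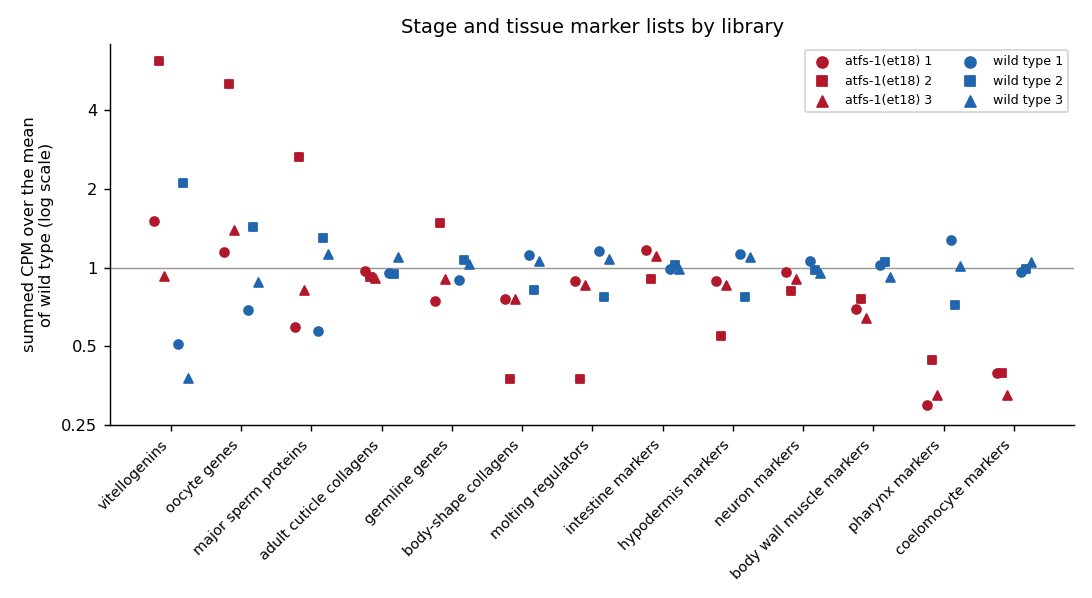
Summed CPM of 13 marker lists in each library, divided by the mean of the wild-type libraries (log axis). Red symbols are *atfs-1(et18)* libraries and blue symbols wild-type libraries, 3 each, and squares are replicate 2. Vitellogenin, oocyte and sperm sums are highest in replicate 2 of each group, while muscle, pharynx and coelomocyte sums are lower in all 3 *atfs-1(et18)* libraries than in any wild-type library.

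*atfs-1* itself (WBGene00013878, WBcel235 chromosome V, 14193685 to 14197698) was at 86.4, 96.8 and 88.3 CPM in *atfs-1(et18)* worms, against 75.7, 61.2 and 62.5 CPM in wild-type worms. Its mean was 90.5 ± 5.55 CPM in *atfs-1(et18)* worms and 66.5 ± 8.02 CPM in wild-type worms (SD, n = 3 each), a log2 fold change of 0.44 (SE 0.109, adjusted p = 0.0385). The groups did not overlap. The call was lost with the replicate block (adjusted p = 0.0503) and without *atfs-1(et18)* replicate 1 or 3 or wild type replicate 2 or 3 (adjusted p = 0.0755 to 0.15). The allele changes an amino acid, so the transcript level does not check the labels. *hsp-6*, the mitochondrial HSP70 chaperone that is the standard readout of the UPRmt, was at 1599, 1397 and 1550 CPM in *atfs-1(et18)* worms, against 625, 562 and 553 CPM in wild-type worms. It rose by a log2 fold change of 1.39 (SE 0.0897, adjusted p = 0.000566). Of 7 mitochondrial chaperones and proteases, 5 rose.

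The largest rises were in genes with almost no reads in wild-type worms. *C09E7.8* (WBGene00015642, chromosome III, 6553575 to 6558575) had 359, 586 and 436 counts in *atfs-1(et18)* libraries and 0, 0 and 0 counts in wild-type libraries, at least 575-fold higher in *atfs-1(et18)* worms against a floor of 3 counts over the wild-type group. *F22B3.5* had 68, 78 and 87 counts in *atfs-1(et18)* libraries and 0 in each wild-type library, at least 97.1-fold higher by the same floor. Its neighbour on chromosome IV, *F22B3.7*, was at 58.9, 67.3 and 63.4 CPM in *atfs-1(et18)* worms, against 0.138, 0.0364 and 0.0665 CPM in wild-type worms. *F22B3.7* had a log2 fold change of 9.47 (SE 0.274, adjusted p = 6.7e-05). Both genes lie within 11415598 to 11421796 on that chromosome, and *F22B3.5* had 0 counts also in the 6 libraries of the other experiment.

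On the right arm of chromosome V, *C38D9.2* and the noncoding RNA gene *C38D9.13* were high together. *C38D9.2* was at 83.8, 148 and 106 CPM in *atfs-1(et18)* worms, against 0.609, 0.547 and 0.632 CPM in wild-type worms (log2 fold change 7.55, adjusted p = 7.84e-05). *C38D9.13* had 108, 148 and 130 counts in *atfs-1(et18)* libraries, against 3, 0 and 1 counts in wild-type libraries, a ratio of 121 with a 95% counting interval of 46.7 to 445. *F15D4.5*, *ZK177.9* and *F40D4.13* rose by 7.22, 7.18 and 6.67 on the log2 scale. *F15D4.5* was at 104.4, 152.6 and 127.9 CPM in *atfs-1(et18)* worms, against 0.914, 0.474 and 1.16 CPM in wild-type worms. Each of these calls held in all 6 fits that left out a library. In all, 8 genes had at least 20 counts in every *atfs-1(et18)* library and at most 3 in every wild-type library, and 11 genes had the opposite pattern.

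Of the 8 largest falls, 5 were of genes that lie in a short stretch of chromosome V. They had at least 215 counts in each wild-type library and almost no reads in *atfs-1(et18)* worms. *gly-20* (WBGene00001645, 11282572 to 11286042) encodes N-acetylglucosaminyltransferase II, an enzyme of N-glycan maturation. It had 0, 1 and 0 counts in *atfs-1(et18)* libraries, against 2103, 1522 and 1747 counts in wild-type libraries, so that wild type was higher by a ratio of 4298 (95% counting interval 771 to 169780). In the 6 libraries of the other experiment, which hold an *atfs-1* null mutant and its wild type, *gly-20* had 1309 to 3736 counts.

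Farther along the same stretch, the cuticle collagen *col-154* had 1, 2 and 2 counts in *atfs-1(et18)* libraries, against 3048, 2271 and 1790 counts in wild-type libraries. The next collagen gene, *col-155*, had 2, 2 and 4 counts in *atfs-1(et18)* libraries, against 3995, 3183 and 2688 counts in wild-type libraries. *F55C10.4*, which lies between them, had 0 counts in each *atfs-1(et18)* library, against 356, 215 and 364 counts in wild-type libraries, at least 249-fold lower. *K03B8.6* had 0 counts in each *atfs-1(et18)* library, against 1773, 1256 and 1525 counts in wild-type libraries, at least 1214-fold lower. An overlapping gene takes up 30.9% of the exon bases of *K03B8.6*, and strand use in the counting is not given in the sources used here. *clec-223*, with 0 counts in each *atfs-1(et18)* library against 12, 19 and 13 counts in wild-type libraries, and *C03E10.3*, with 1, 0 and 1 counts against 25, 29 and 18 counts, flank *gly-20* and were picked out after their values were seen.

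The low genes lay in runs of 3 and 4 neighbouring genes, with 12 genes between the runs at 63.5% of the wild-type level or more. From *cln-3.1* to *des-2*, a span chosen after the values were seen, 24 genes had at least 30 counts over the wild-type libraries. Of these, 7 were under 5% of the wild-type level, spread over 136.4 kb. Among the genes between the runs were *snf-11* (a GABA transporter, 85.1%), *tmed-10* (a cargo receptor of the secretory pathway, 83.7%) *cnb-1* (calcineurin B, 99.1%) and *T03F7.7*, at 231% (adjusted p = 0.00295). *cln-3.1*, a homolog of the human lysosomal gene CLN3 and the gene just before the first low gene, was at 164.5, 128.9 and 148.5 CPM in *atfs-1(et18)* worms, against 21.5, 26 and 26.4 CPM in wild-type worms. It rose by a log2 fold change of 2.58 (adjusted p = 0.000277). The last low gene lies 2.78 Mb from *atfs-1* on the same chromosome. Whether the DNA of the low genes is present in the strain was not tested.

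The other 3 of the largest falls lay elsewhere. *pud-3* and *pud-4* overlap on the left arm of chromosome V and belong to a family named for proteins that are more abundant in *daf-2* mutants. *pud-3* had 3, 2 and 2 counts in *atfs-1(et18)* libraries, against 82 to 206 counts in wild-type libraries, and *pud-4* had 2, 2 and 0 counts, against 41 to 88 counts. Wild type was higher by ratios of 47.7 and 36.4, with 95% counting intervals reaching down to 22.9 and 14. The pseudogene WBGene00194667 on chromosome IV was at 0.0852, 0.0408 and 0.148 CPM in *atfs-1(et18)* worms, against 3.21, 3.5 and 4.32 CPM in wild-type worms (log2 fold change -5.24, adjusted p = 0.000804).

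**Figure D2:**
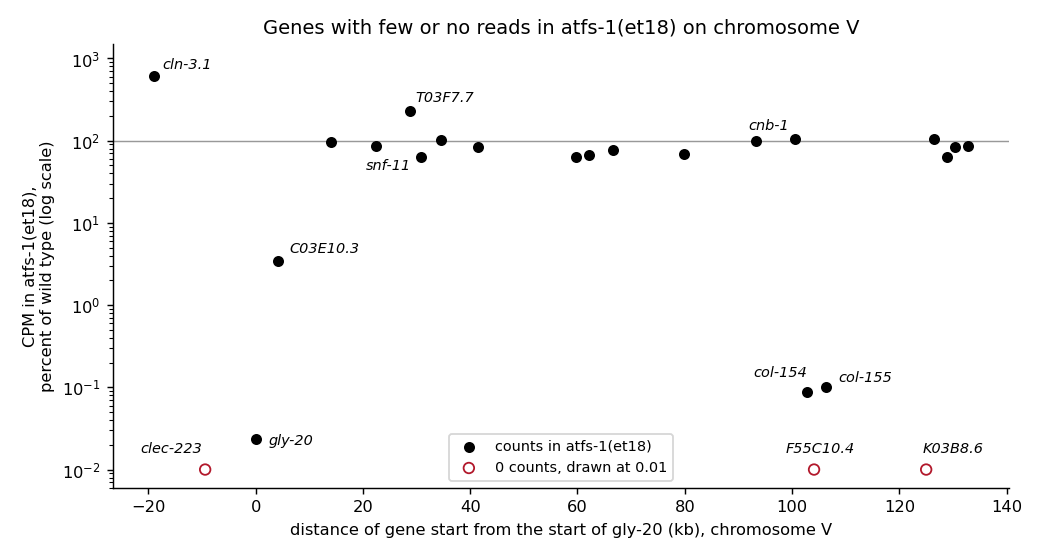
Level of each gene in *atfs-1(et18)* worms as a percentage of its wild-type CPM (log axis), by distance in kb from the start of *gly-20* on chromosome V. Open symbols are genes with 0 counts in every *atfs-1(et18)* library. The 7 low genes sit at 3.47% or less and the other genes, 12 of them between the 2 runs of low genes, at 63.5% or more.

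A run of genes near the left end of chromosome V, also picked out after the values were seen, was high in *atfs-1(et18)* worms and raised in a single wild-type library. *K06H6.2* was at 82, 33.2 and 38 CPM in *atfs-1(et18)* worms, against 4.27, 0.109 and 0.0997 CPM in wild-type worms. *K06H6.1* was at 50.7, 16.9 and 21.1 CPM in *atfs-1(et18)* worms, against 2.3, 0.109 and 0.0665 CPM in wild-type worms. *gmd-2* on chromosome I, a GDP-mannose dehydratase of fucose synthesis, was at 44.28, 16.09 and 17.19 CPM in *atfs-1(et18)* worms, against 2.69, 0.146 and 0.0665 CPM in wild-type worms. In each of these genes wild type replicate 1 stood above the other wild-type libraries and *atfs-1(et18)* replicate 1 above the other *atfs-1(et18)* libraries. *K06H6.2* rose by a log2 fold change of 5.03 (adjusted p = 0.0395), and by 8.87 (adjusted p = 0.00776) without wild type replicate 1. That call was lost without *atfs-1(et18)* replicate 1 or 3 or wild type replicate 2 or 3 (adjusted p = 0.0761 to 0.105), and those of *K06H6.1* and *gmd-2* were lost without the same libraries (adjusted p = 0.0616 to 0.0895 and 0.0771 to 0.106). Of the 12 tested genes from *C14C6.6* to *ZK488.5* (545844 to 595677), 9 rose, and *ZK488.5* (adjusted p = 0.0713), *C14C6.2* (0.29) and WBGene00015763 (0.0984) did not pass. *ZK488.5* passed with the block (adjusted p = 0.0192) and without *atfs-1(et18)* replicate 2 or wild type replicate 1 (adjusted p = 0.026 and 0.0422). The count of 9 was 5 and 2 without *atfs-1(et18)* replicate 1 or 3, and 1 without wild type replicate 2 or 3. In the same wild-type library *C09E7.8* had 0 counts and *F22B3.7* was at 0.138 CPM, its highest value among the wild-type libraries. The source of the reads of the run in that library was not tested.

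**Figure D3:**
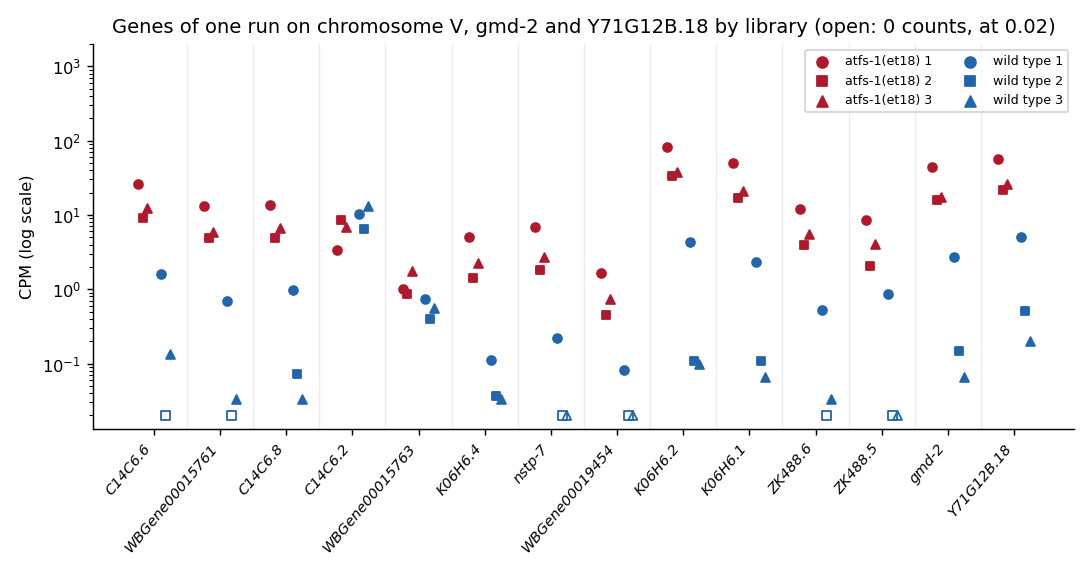
CPM of the genes of the chromosome V left-arm run and of *gmd-2* and *Y71G12B.18* in each library (log axis). Open symbols are libraries with 0 counts, drawn at 0.02. *atfs-1(et18)* libraries sit highest, wild type replicate 1 lies between them and the other wild-type libraries, and *C14C6.2* overlaps between groups.

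Across families the direction of change differed. Of 323 detoxification and stress genes tested, 53 were higher and 17 lower. Immune genes were called in both directions, 34 higher and 38 lower of 230. Cuticle genes were called higher in 14 and lower in 45 of 298. The 169 metabolic genes, at 7.69% higher and 10.1% lower, and the 418 signalling genes, at 10.5% higher and 5.26% lower, stand beside shares of 9.42% and 7.51% over all genes.

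**Figure D4:**
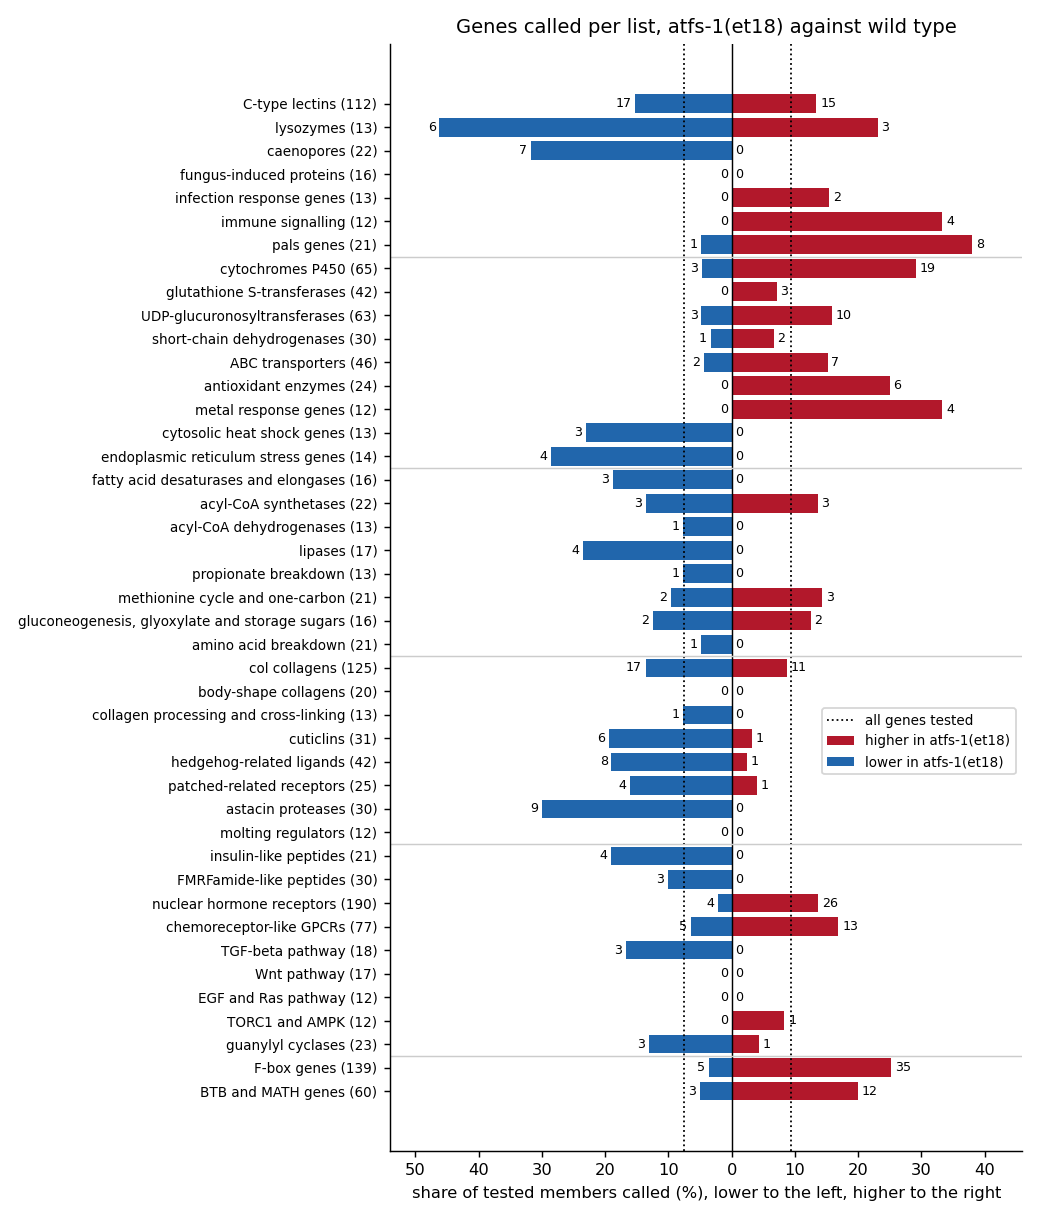
Share of the tested members of each gene list (at least 12 tested) that was higher or lower in *atfs-1(et18)* worms at an adjusted p under 0.05, in percent. Dotted lines mark the shares over all genes, 9.42% higher and 7.51% lower. Cytochromes P450, pals genes and F-box genes stand to the higher side, and lysozymes, caenopores and astacin proteases to the lower side.

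The immune genes divided by family and within families. Of 230 tested, 34 rose, 38 fell and the median log2 fold change was -0.12. C-type lectins, secreted or membrane proteins with a carbohydrate-binding fold, numbered 112 tested, of which 15 rose (13.4%) and 17 fell (15.2%). *clec-17* was at 10.3, 6 and 15 CPM in *atfs-1(et18)* worms, against 0.36, 0.255 and 1.06 CPM in wild-type worms (log2 fold change 4.21, SE 0.609, adjusted p = 0.00771). *clec-230* was at 2.68, 1.103 and 2.38 CPM in *atfs-1(et18)* worms, against 12.21, 13.96 and 14.20 CPM in wild-type worms (log2 fold change -2.71, SE 0.333, adjusted p = 0.00441). Neither lectin overlapped between the groups, which the rule that named them required. Among the lectins picked out after their values were seen, *clec-85*, a gene under the PMK-1 p38 immune pathway, was at 90.8, 94.7 and 88.4 CPM in *atfs-1(et18)* worms, against 20.5, 19.3 and 22.8 CPM in wild-type worms. With a library left out, lectins numbered from 9 higher (without wild type replicate 1) to 22 (without *atfs-1(et18)* replicate 2), and from 3 lower (without wild type replicate 3) to 22 (without *atfs-1(et18)* replicate 2).

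Lysozymes cleave bacterial cell walls, and 9 of the 13 tested changed, 3 higher and 6 lower. *lys-2* was at 432, 320 and 526 CPM in *atfs-1(et18)* worms, against 90.6, 91.9 and 109 CPM in wild-type worms, and rose by a log2 fold change of 2.13 (SE 0.193, adjusted p = 0.00155). *lys-5* was at 0.639, 0.572 and 0.334 CPM in *atfs-1(et18)* worms, against 6.09, 10.3 and 6.38 CPM in wild-type worms, and fell (log2 fold change -3.88, SE 0.355, adjusted p = 0.00158). The invertebrate-type lysozyme *ilys-5*, picked out after its values were seen, was at 313, 308 and 159 CPM in *atfs-1(et18)* worms, against 1179, 1338 and 1196 CPM in wild-type worms (log2 fold change -2.25, adjusted p = 0.00388). *lys-6* and *lys-4*, chosen likewise, fell too, by 2.97 and 1.46 on the log2 scale. The rule that named *lys-2* and *lys-5* required groups not to overlap. Without wild type replicate 1, 1 lysozyme was higher and 4 were lower, and in the other leave-one-out fits 2 to 4 were higher and 4 to 6 lower.

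Caenopores, small pore-forming proteins of the gut, fell in 7 of 22 tested. *spp-7* fell by 2.15 on the log2 scale (adjusted p = 0.0177), a call lost without *atfs-1(et18)* replicate 1 or 3 or wild type replicate 1 or 3 (adjusted p = 0.0513 to 0.0759). *spp-4*, picked out after its values were seen, was at 21.5, 19.4 and 19.9 CPM in *atfs-1(et18)* worms, against 58.9, 43.2 and 54.9 CPM in wild-type worms (log2 fold change -1.37, adjusted p = 0.00225). Caenopores numbered 3, 3, 2 and 1 lower without *atfs-1(et18)* replicate 1 or 3 or wild type replicate 1 or 3. The epidermal antimicrobial peptides of the nlp-29 group fell in 5 of 10 and rose in 1, and without wild type replicate 1, 0 passed in either direction. *nlp-31* fell by 1.17 on the log2 scale, a call lost without wild type replicate 1 or 3 (adjusted p = 0.0679 and 0.0609). Among 5 caenacins and 16 fungus-induced proteins edgeR called 0 in either direction. At an unadjusted p under 0.05, 2 caenacins were higher and 1 fungus-induced protein lay on each side, and DESeq2 called 2 caenacins and 1 fungus-induced protein higher.

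The other immune lists are given by their counts, beside 9.42% higher and 7.51% lower over all genes tested. Of 6 defensin-like and thaumatin genes 1 rose (16.7%) and 2 fell (33.3%), with a median log2 fold change of -1.16. These counts were 1 and 3 without *atfs-1(et18)* replicate 2, and 0 and 0 without wild type replicate 1. Of 21 pals genes, which answer to intracellular infection and proteasome block, 8 rose (38.1%) and 1 fell, with 5 higher without wild type replicate 1 or 3 and 11 higher without *atfs-1(et18)* replicate 2. *pals-6* was at 5.15, 4.04 and 6.39 CPM in *atfs-1(et18)* worms, against 0.415, 0.401 and 0.632 CPM in wild-type worms (log2 fold change 3.42, adjusted p = 0.00134). Of 13 infection response genes 2 rose (15.4%), with 4 higher without *atfs-1(et18)* replicate 2 and 1 in each of the other leave-one-out fits but that without wild type replicate 2. *dod-22*, a gene induced by bacterial pathogens and repressed by DAF-16, was at 38.7, 34 and 46.1 CPM in *atfs-1(et18)* worms, against 5.9, 5.58 and 6.78 CPM in wild-type worms (log2 fold change 2.70, SE 0.162, adjusted p = 0.000515). Of 12 immune signalling genes 4 rose (33.3%), with 7 higher without *atfs-1(et18)* replicate 2 and 1 without any of the other 5 libraries. *fshr-1*, a leucine-rich repeat receptor that acts in intestinal immunity, was at 120, 97.9 and 121 CPM in *atfs-1(et18)* worms, against 62.2, 65.1 and 63 CPM in wild-type worms (log2 fold change 0.84, adjusted p = 0.00445). Dropping *atfs-1(et18)* replicate 2 or wild type replicate 1 or 3 gave 52, 17 and 19 immune genes higher. Dropping *atfs-1(et18)* replicate 1 or 3 or wild type replicate 1, 2 or 3 gave 24, 15, 11, 23 and 13 lower.

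Detoxification genes were higher more often than lower. Of 323 detoxification and stress genes tested, 53 rose and 17 fell, with a median log2 fold change of 0.17 beside 0.07 over all genes. With the replicate block 64 rose and 39 fell. Xenobiotics are handled in phases, first oxidized by cytochromes P450, then joined to glutathione or sugars by transferases, then exported by ABC transporters.

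Of 65 cytochromes P450, 19 rose (29.2%) and 3 fell (4.62%), beside 9.42% and 7.51% over all genes tested. The block left 19 higher and 9 lower. Leave-one-out fits gave 8 (without wild type replicate 3) to 27 (without *atfs-1(et18)* replicate 2) higher, and 1 lower without *atfs-1(et18)* replicate 3 or any wild-type library. *cyp-13A8* (WBGene00011674, chromosome II, 9805627 to 9807532) was at 11.07, 10.37 and 18.94 CPM in *atfs-1(et18)* worms, against 0.222, 0.328 and 0.266 CPM in wild-type worms. It had the largest rise of the family, a log2 fold change of 5.62 (SE 0.361, adjusted p = 0.000566). *cyp-33C8* was at 311, 275 and 378 CPM in *atfs-1(et18)* worms, against 15.4, 18 and 16.9 CPM in wild-type worms (log2 fold change 4.26, adjusted p = 7.5e-05). *cyp-14A1* was at 39.4, 37 and 41.4 CPM in *atfs-1(et18)* worms, against 2.24, 1.71 and 2.33 CPM in wild-type worms (log2 fold change 4.22, adjusted p = 8.08e-05). These last 2 were picked out after their values were seen. *cyp-35C1*, a member of a family induced by many xenobiotics, moved the other way, at 12.26, 5.92 and 11.36 CPM in *atfs-1(et18)* worms, against 51.7, 39.5 and 49.7 CPM in wild-type worms (log2 fold change -2.25, adjusted p = 0.00499).

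Of 63 UDP-glucuronosyltransferases, 10 rose (15.9%) and 3 fell (4.76%), beside 9.42% and 7.51% over all genes tested. With the block 14 rose and 9 fell. Without *atfs-1(et18)* replicate 2, 18 were higher and 5 lower, without wild type replicate 2, 7 were lower, and without *atfs-1(et18)* replicate 3 or wild type replicate 1 or 3, 0, 0 and 1 were lower. *ugt-19* was at 206, 237 and 215 CPM in *atfs-1(et18)* worms, against 18.45, 16.07 and 20.18 CPM in wild-type worms (log2 fold change 3.59, SE 0.119, adjusted p = 7e-05). *ugt-62*, picked out after its values were seen, was at 1091, 1156 and 1234 CPM in *atfs-1(et18)* worms, against 180.9, 153.7 and 181.4 CPM in wild-type worms (log2 fold change 2.75). Their libraries lay far apart between groups and close within them, though both genes were chosen by their values. Glutathione S-transferases, the other conjugating family, were called higher in 3 of 42 (7.14%, beside 9.42% over all genes tested), and 5 with the block. *gst-14* rose by 2.54 on the log2 scale (adjusted p = 0.0101), a call lost without wild type replicate 3 (adjusted p = 0.0553). The other 2 that passed, *gst-29* and *gst-39*, are named after their values were seen. They rose by 2.33 and 1.03 on the log2 scale and held in all 6 leave-one-out fits.

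ABC transporters rose in 7 (15.2%) and fell in 2 (4.35%) of 46. Without *atfs-1(et18)* replicate 2, 14 were higher and 6 lower, and without *atfs-1(et18)* replicate 3 or wild type replicate 1 or 3, 3 were higher. *haf-6*, a transporter that acts in the germline and intestine and is needed for efficient RNA interference, was at 61.3, 51.5 and 59.7 CPM in *atfs-1(et18)* worms, against 10.3, 10 and 11.6 CPM in wild-type worms (log2 fold change 2.43, adjusted p = 0.00021). *pgp-9*, a P-glycoprotein picked out after its values were seen, was at 359, 353 and 357 CPM in *atfs-1(et18)* worms, against 74.2, 94.8 and 69 CPM in wild-type worms. *pgp-14* fell by 1.45 on the log2 scale (adjusted p = 0.0112), a call lost without *atfs-1(et18)* replicate 3 (adjusted p = 0.0528).

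Redox and metal genes rose in part. Of 24 antioxidant enzymes 6 rose, with 11 higher without *atfs-1(et18)* replicate 2 and 2 without wild type replicate 3. Among them was *gpx-8*, a glutathione peroxidase, at 2.85, 3.63 and 3.08 CPM in *atfs-1(et18)* worms, against 0.471, 0.474 and 0.332 CPM in wild-type worms (log2 fold change 2.89, adjusted p = 0.00118). *trx-2*, the mitochondrial thioredoxin, was at 118, 99 and 114 CPM in *atfs-1(et18)* worms, against 51.4, 47.6 and 51.1 CPM in wild-type worms (log2 fold change 1.14, adjusted p = 0.00115). The mitochondrial superoxide dismutase *sod-3*, a DAF-16 target, rose by 1.68 on the log2 scale (adjusted p = 0.00998), a call lost without wild type replicate 3 (adjusted p = 0.0517). Of 12 metal response genes 4 rose, and 3 or 4 did in each leave-one-out fit. *cdr-2* and *cdr-4* belong to a family named for its induction by cadmium. *cdr-2* was at 300, 300 and 360 CPM in *atfs-1(et18)* worms, against 31.7, 27.2 and 26.6 CPM in wild-type worms (log2 fold change 3.49, adjusted p = 7.5e-05). *cdr-4* was at 250, 276 and 280 CPM in *atfs-1(et18)* worms, against 42.3, 35 and 35.6 CPM in wild-type worms (log2 fold change 2.84). *pcs-1*, phytochelatin synthase, rose by 1.33 on the log2 scale (adjusted p = 0.00118).

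Of 10 hypoxia and hydrogen sulfide genes 2 rose and 1 fell, with a median log2 fold change of -0.05. The counts were 3 and 2 without *atfs-1(et18)* replicate 2, and 1 rose without any of the other 5 libraries. *nhr-57*, a target of the hypoxia factor HIF-1, was at 18.4, 14.7 and 16.9 CPM in *atfs-1(et18)* worms, against 5.35, 4.66 and 5.52 CPM in wild-type worms (log2 fold change 1.69, adjusted p = 0.00175). *cysl-2*, a cysteine synthase family gene, fell by 1.28 on the log2 scale (adjusted p = 0.0294), a call lost without *atfs-1(et18)* replicate 1 or 3 or wild type replicate 1 or 3 (adjusted p = 0.0609 to 0.115). Cytosolic heat shock genes fell in 3 of 13 and endoplasmic reticulum stress genes in 4 of 14. With the block these counts were 6 and 8, without *atfs-1(et18)* replicate 2 they were 5 and 7, and without wild type replicate 1 or 3 they were 0 and 0. The small heat shock proteins *hsp-12.1* and *hsp-12.2* fell by 1.15 and 1.18 on the log2 scale. The call of *hsp-12.1* was lost without wild type replicate 1 or 3 (adjusted p = 0.0576 and 0.0553), and that of *hsp-12.2* also without *atfs-1(et18)* replicate 1 or 3 (adjusted p = 0.055 to 0.101). Among detoxification and stress genes, leaving out *atfs-1(et18)* replicate 2 or 3 or wild type replicate 1 or 3 gave 92, 34, 33 and 30 higher. Leaving out the same 4 libraries gave 30, 3, 2 and 4 lower.

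**Figure D5:**
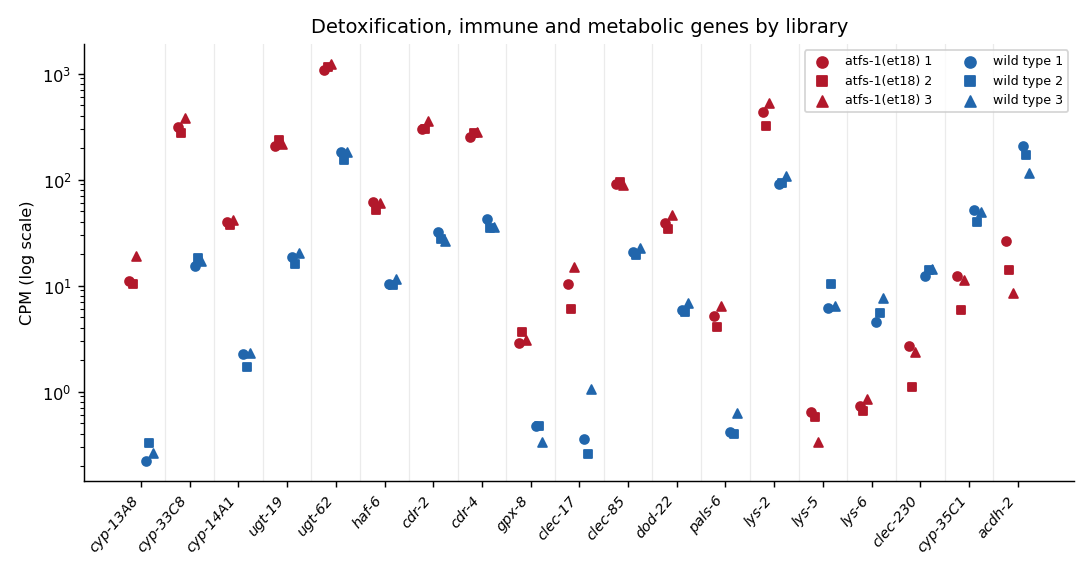
CPM of 19 detoxification, stress, immune and metabolic genes in each library (log axis), *atfs-1(et18)* and wild type as marked. For each gene the 3 *atfs-1(et18)* libraries lie wholly above or wholly below the 3 wild-type libraries, from *cyp-13A8*, with a log2 fold change of 5.62, to *lys-5*, with -3.88. Most of these genes were named by a rule that requires groups not to overlap, or were picked out after their values were seen. For them the separation follows from that choice.

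Of 169 metabolic genes tested, 13 rose and 17 fell, in several pathways. In the mevalonate pathway, which makes isoprenoids and is the pathway that statins block, 3 of 9 genes rose. *hmgs-1*, HMG-CoA synthase, was at 122.2, 93.77 and 125.5 CPM in *atfs-1(et18)* worms, against 66.4, 61.7 and 61.6 CPM in wild-type worms (log2 fold change 0.85, adjusted p = 0.00851). *hmgr-1*, HMG-CoA reductase, the enzyme that statins inhibit, was at 63.2, 67.1 and 60.5 CPM in *atfs-1(et18)* worms, against 44.7, 42.6 and 42 CPM in wild-type worms (log2 fold change 0.56, adjusted p = 0.00756). *fdps-1*, farnesyl diphosphate synthase, was at 69.8, 69.4 and 73.8 CPM in *atfs-1(et18)* worms, against 41.9, 41.4 and 39.6 CPM in wild-type worms (log2 fold change 0.79, adjusted p = 0.0018). All 3 genes were higher in each *atfs-1(et18)* library than in any wild-type library. They are the genes that passed, and the rule that named *hmgs-1* required groups not to overlap, so the separation follows in part from that choice. Of the 9 genes 6 had a log2 fold change above 0 and 3 below, with a median of 0.16. Without wild type replicate 3 the calls of *hmgs-1* and *hmgr-1* were lost (adjusted p = 0.0506 and 0.052), and that of *fdps-1* held.

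In one-carbon and sulfur metabolism, 3 of 21 genes rose and 2 fell. *folt-1*, a folate transporter, was at 41.5, 51.8 and 48.7 CPM in *atfs-1(et18)* worms, against 10.7, 11.7 and 11.4 CPM in wild-type worms (log2 fold change 2.07, adjusted p = 0.000459). *cth-1*, cystathionine gamma-lyase, which makes cysteine, was at 1201, 1129 and 1066 CPM in *atfs-1(et18)* worms, against 428.4, 488.9 and 390.8 CPM in wild-type worms (log2 fold change 1.38, adjusted p = 0.000899). *sams-3*, an S-adenosylmethionine synthetase, fell by 0.60 on the log2 scale (adjusted p = 0.00654).

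In sugar metabolism, *pck-1*, the phosphoenolpyruvate carboxykinase that starts gluconeogenesis, was at 146, 127 and 135 CPM in *atfs-1(et18)* worms, against 272, 241 and 257 CPM in wild-type worms (log2 fold change -0.92, adjusted p = 0.00175). Lipid genes moved both ways, though not in every list. Of 17 lipases 0 rose and 4 fell (23.5%, beside 7.51% over all genes tested), with a median log2 fold change of -0.47. Without *atfs-1(et18)* replicate 3 or wild type replicate 1 or 3, 0 lipases fell. Of 16 fatty acid desaturases and elongases 0 rose and 3 fell. *fat-7*, a stearoyl-CoA desaturase, was at 189, 159 and 147 CPM in *atfs-1(et18)* worms, against 264, 285 and 337 CPM in wild-type worms (log2 fold change -0.84, adjusted p = 0.0101). *acs-21*, an acyl-CoA synthetase, rose (12.69, 9.434 and 12.81 CPM in *atfs-1(et18)* worms, against 3.74, 4.08 and 4.49 CPM in wild-type worms, adjusted p = 0.00471), and *lbp-1*, a lipid-binding protein, rose by 0.92 on the log2 scale. *acdh-2*, an acyl-CoA dehydrogenase, was at 26.1, 14 and 8.43 CPM in *atfs-1(et18)* worms, against 207, 169 and 116 CPM in wild-type worms. It fell (log2 fold change -3.35, SE 0.45, adjusted p = 0.00592) while none of the other 12 tested acyl-CoA dehydrogenases passed in edgeR, 2 being higher at an unadjusted p under 0.05 and 0 by DESeq2. Of the 13, 7 were higher without *atfs-1(et18)* replicate 2. Leaving out *atfs-1(et18)* replicate 2 or wild type replicate 1, 2 or 3 gave 35, 7, 8 and 5 metabolic genes higher. Leaving out *atfs-1(et18)* replicate 3 or wild type replicate 1, 2 or 3 gave 4, 4, 9 and 4 lower.

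Cuticle genes were lower more often than higher. Of 298 tested, 14 rose, 45 fell and the median log2 fold change was -0.43. These counts moved with the replicate number. With the block 39 rose and 105 fell, and without *atfs-1(et18)* replicate 2, 20 rose and 70 fell. The 20 body-shape collagens, dpy, rol, sqt and bli genes whose loss alters the worm's form, summed to 8954, 4426 and 8931 CPM in *atfs-1(et18)* worms, against 13122, 9636 and 12496 CPM in wild-type worms. Of these genes 19 had a log2 fold change below 0. In edgeR 0 of 20 passed, with 6 lower at an unadjusted p under 0.05 and 3 by DESeq2, while with the block 15 fell. Each *atfs-1(et18)* sum lay under the lowest wild-type sum.

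Among 125 col collagens 11 rose (8.8%, beside 9.42% over all genes tested) and 17 fell (13.6%, beside 7.51%). With the block 35 rose and 30 fell. Without *atfs-1(et18)* replicate 2 these counts were 16 and 31, and without wild type replicate 1 or 3 they were 1 and 2, and 0 and 6. *col-95* was at 3.58, 22.8 and 2.75 CPM in *atfs-1(et18)* worms, against 0.0554, 0.255 and 0.0332 CPM in wild-type worms, highest in replicate 2 of each group. It rose by 6.42 on the log2 scale (SE 1.23, adjusted p = 0.0187), a call lost without wild type replicate 1 or 3 (adjusted p = 0.0924 and 0.0834). The falls of *col-154* and *col-155* on chromosome V are described above.

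Astacin metalloproteases, some of which free the worm from its old cuticle, fell in 9 of 30 (30%, beside 7.51% over all genes tested). They fell in 6 or more in each leave-one-out fit. *nas-14* was at 2.81, 3.72 and 2.97 CPM in *atfs-1(et18)* worms, against 24.6, 16.3 and 22.2 CPM in wild-type worms (log2 fold change -2.73, SE 0.221, adjusted p = 0.00105). *nas-15* and *nas-6*, picked out after their values were seen, fell by 2.40 and 2.28 on the log2 scale. The falls of *nas-14*, *nas-15* and *nas-6* held in all 6 leave-one-out fits. Over the family, 12 were lower without *atfs-1(et18)* replicate 2, and 6 without *atfs-1(et18)* replicate 3 or wild type replicate 1 or 3. Hedgehog-related ligands, which in worms act in the epidermis and cuticle, fell in 8 of 42 (19%) and rose in 1 (2.38%). *wrt-8* was at 5.71, 2.53 and 5.01 CPM in *atfs-1(et18)* worms, against 18.2, 20.7 and 19.9 CPM in wild-type worms (log2 fold change -2.15, adjusted p = 0.00709). Their patched-related receptors fell in 4 of 25 and rose in 1, with *ptr-19* at 1.92, 2.61 and 2.75 CPM in *atfs-1(et18)* worms, against 14.5, 6.82 and 13.7 CPM in wild-type worms. Cuticlins, insoluble cuticle proteins, fell in 6 of 31 and rose in 1. With the block 18 hedgehog-related ligands, 10 patched-related receptors and 10 cuticlins were lower. Without wild type replicate 1 these 3 lists had 3, 1 and 1 genes lower, and without *atfs-1(et18)* replicate 2 they had 9, 4 and 6. *cutl-10* rose by 1.59 and *cutl-8* fell by 1.65 on the log2 scale. Leaving out wild type replicate 1 or 3 gave 2 and 1 cuticle genes higher, and leaving out *atfs-1(et18)* replicate 1 gave 9. Leaving out *atfs-1(et18)* replicate 3 or wild type replicate 1, 2 or 3 gave 20, 13, 26 and 20 lower.

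Among signalling genes, 44 of 418 tested rose and 22 fell. Nuclear hormone receptors, ligand-gated transcription factors that expanded greatly in nematodes, accounted for 26 of the rises and 4 of the falls, of 190 tested. These were 13.7% and 2.11% of those tested, beside 9.42% higher and 7.51% lower over all genes. *nhr-74* was at 0.298, 0.368 and 0.52 CPM in *atfs-1(et18)* worms, against 3.21, 3.72 and 5.32 CPM in wild-type worms (log2 fold change -3.34, adjusted p = 0.00198). *nhr-193*, picked out after its values were seen, was at 34.7, 23 and 33.3 CPM in *atfs-1(et18)* worms, against 5.24, 4.92 and 6.52 CPM in wild-type worms (log2 fold change 2.45, adjusted p = 0.00137). *nhr-115*, *nhr-210* and *nhr-90*, chosen in the same way, rose by 2.33, 2.15 and 1.92 on the log2 scale. Of 193 receptors tested without *atfs-1(et18)* replicate 2, 76 were higher and 5 lower, beside 17.2% and 11.3% of all genes in that fit. The other leave-one-out fits gave 11 (without wild type replicate 3) to 17 (without *atfs-1(et18)* replicate 1) higher and 1 or 2 lower.

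Of 1308 chemoreceptor-like GPCR genes, mostly expressed in a few sensory neurons each, 77 had enough reads to be tested, 13 rose and 5 fell. Those were 16.9% and 6.49% of the 77, beside 9.42% and 7.51% over all genes tested. *srw-85* was at 20.4, 8.74 and 20.3 CPM in *atfs-1(et18)* worms, against 0.415, 0.656 and 0.565 CPM in wild-type worms (log2 fold change 4.92, adjusted p = 0.00138). Of these receptors 22 were higher without *atfs-1(et18)* replicate 2, and 6, 6, 7 and 6 without *atfs-1(et18)* replicate 3 or wild type replicate 1, 2 or 3. Insulin-like peptides fell in 4 of 21 (2 with the block), and 3 of 10 genes of the insulin receptor pathway rose. These counts were 8 and 4 without *atfs-1(et18)* replicate 2 and 0 and 0 without *atfs-1(et18)* replicate 3 or wild type replicate 1. *ins-33* fell by 1.83 on the log2 scale (adjusted p = 0.0166), a call lost without *atfs-1(et18)* replicate 3 or wild type replicate 1 or 3 (adjusted p = 0.0611 to 0.0723). *daf-16*, the FOXO factor at the end of that pathway, was at 262, 215 and 261 CPM in *atfs-1(et18)* worms, against 149, 167 and 160 CPM in wild-type worms. It rose by 0.63 on the log2 scale (adjusted p = 0.0113), a call lost without *atfs-1(et18)* replicate 3 or wild type replicate 1 or 3 (adjusted p = 0.0528 to 0.0639).

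*daf-7*, the TGF-beta ligand of the dauer pathway, fell by 1.47 on the log2 scale (adjusted p = 0.0158), a call lost without *atfs-1(et18)* replicate 3 or wild type replicate 1 or 3 (adjusted p = 0.068 to 0.0721). Of 12 TORC1 and AMPK genes, *rheb-1*, the GTPase that activates TORC1, rose by 0.40 on the log2 scale (adjusted p = 0.0284). That call was lost with the replicate block (adjusted p = 0.0507) and with every library left out in turn except *atfs-1(et18)* replicate 2 (adjusted p = 0.0664 to 0.136). In the Wnt, Notch and EGF lists edgeR called 0 of 17, 0 of 8 and 0 of 12 genes. At an unadjusted p under 0.05, 1 Wnt gene was higher, 1 Notch gene lower and 2 EGF genes on each side, and DESeq2 called 0, 1 and 1 of them. Leaving out *atfs-1(et18)* replicate 1, 2 or 3 or wild type replicate 1, 2 or 3 gave 27, 118, 19, 18, 22 and 17 signalling genes higher. The same fits gave 12, 40, 4, 3, 11 and 3 lower.

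Beyond these themes, F-box genes, adaptors that bring substrates to ubiquitin ligases, rose in 35 of 139 tested (25.2%) and fell in 5 (3.6%). Over all genes tested these shares were 9.42% and 7.51%. The median log2 fold change of the F-box genes was 0.52. Without *atfs-1(et18)* replicate 2 the F-box counts were 60 and 9 of 140, and the lowest were 15 and 1 without *atfs-1(et18)* replicate 3. *fbxa-166* was at 7.28, 3.76 and 9.1 CPM in *atfs-1(et18)* worms, against 0.0831, 0.328 and 0.333 CPM in wild-type worms (log2 fold change 4.78, adjusted p = 0.00388). *fbxa-52* was at 0.383, 0.204 and 0.52 CPM in *atfs-1(et18)* worms, against 7.4, 4.74 and 8.74 CPM in wild-type worms (log2 fold change -4.21, adjusted p = 0.00187). BTB and MATH genes, adaptors of another ubiquitin ligase, rose in 12 of 60 (20%) and fell in 3 (5%). Of them 22 were higher without *atfs-1(et18)* replicate 2, and 4 or 5 without *atfs-1(et18)* replicate 3 or any wild-type library. *bath-45* was at 11.2, 14 and 13.2 CPM in *atfs-1(et18)* worms, against 0.388, 0.364 and 0.665 CPM in wild-type worms (log2 fold change 4.75, adjusted p = 0.000515).

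Tissue markers differed for muscle, pharynx and coelomocytes, and in whole worms fewer cells of a type and less RNA per cell cannot be told apart. Coelomocytes are scavenger cells of the body cavity. Their 3 markers summed to 10.8, 10.8 and 8.95 CPM in *atfs-1(et18)* worms, against 26.3, 27.1 and 28.8 CPM in wild-type worms, and all 3 fell in every leave-one-out fit. *lgc-26* was at 3.53, 3.55 and 3.42 CPM in *atfs-1(et18)* worms, against 9.89, 10.5 and 10.6 CPM in wild-type worms (log2 fold change -1.56, adjusted p = 0.00169). The 5 pharynx markers summed to 213, 317 and 233 CPM in *atfs-1(et18)* worms, against 909, 514 and 724 CPM in wild-type worms, and 4 fell, or 0, 2 and 1 without *atfs-1(et18)* replicate 3 or wild type replicate 1 or 3. The pharyngeal myosins *myo-1* and *myo-2* fell by 1.60 and 1.57 on the log2 scale. The call of *myo-2* was lost without *atfs-1(et18)* replicate 3 (adjusted p = 0.0522), and that of *myo-1* without that library or wild type replicate 3 (adjusted p = 0.0582 and 0.0539).

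The 6 body wall muscle markers summed to 9726, 10634 and 8991 CPM in *atfs-1(et18)* worms, against 14331, 14720 and 12911 CPM in wild-type worms, with 4 lower, and 6 with the block, and 0, 0, 0 and 1 lower without *atfs-1(et18)* replicate 3 or wild type replicate 1, 2 or 3. The 8 intestine markers summed to 11518, 8879 and 10915 CPM in *atfs-1(et18)* worms, against 9745, 10052 and 9710 CPM in wild-type worms, and these sums overlapped. Of the 8 markers 1 rose and 2 fell, with a median log2 fold change of 0.13. The riser, *elt-2*, a GATA factor of the intestine, had a log2 fold change of 0.72 (adjusted p = 0.0308), a call lost in each leave-one-out fit but that without *atfs-1(et18)* replicate 2 (adjusted p = 0.0651 to 0.13). *pept-1*, a peptide transporter, fell by 0.40 on the log2 scale (adjusted p = 0.0242), a call lost without *atfs-1(et18)* replicate 3 or any wild-type library (adjusted p = 0.0567 to 0.109). *cpr-1*, a gut cathepsin B-like protease, was at 147.3, 111.3 and 128.6 CPM in *atfs-1(et18)* worms, against 956, 651 and 764 CPM in wild-type worms (log2 fold change -2.62, adjusted p = 0.000656). Every tissue marker gene had enough reads to be tested. Cytosolic ribosomal protein genes summed to 111751, 96982 and 107544 CPM in *atfs-1(et18)* worms, against 129161, 122010 and 118861 CPM in wild-type worms. Of these 77 genes 76 had a log2 fold change below 0 and 11 fell, or 19 with the block. The count was 4, 0, 0, 0 and 1 without *atfs-1(et18)* replicate 1 or 3 or wild type replicate 1, 2 or 3.

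The chromosomes took unequal shares of the calls. Of 2188 tested genes on chromosome X, 5.44% rose and 11.9% fell, with a median log2 fold change of -0.19. Of 3158 on chromosome V, 12.9% rose and 7.82% fell, with a median of 0.10. The other nuclear chromosomes lay between 8.31% and 9.74% higher and between 5.95% and 6.89% lower. With the block the counts for chromosome X were 169 higher and 352 lower, and without *atfs-1(et18)* replicate 2 they were 268 and 384. Of 14 tested genes of the mitochondrial genome 9 were higher.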

How the data were processed

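RNA of whole L4 worms was sequenced as single-end reads in 12 libraries, of which the 6 of the second experiment were used here. The values are read counts per gene, deposited by the authors in a single table of 46739 genes (43720 with a symbol); per the labels' processing notes the tools were STAR 2.5.3a, featureCounts of Subread 1.5.2 and edgeR 3.10.0, on build WBcel235. Strand use and the handling of reads that match several genes are not given in the sources used here. Gene coordinates were read from the Ensembl annotation of the same build.

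Counts were analysed as deposited with edgeR 4.0.16 in R 4.3.3: filterByExpr at its defaults (minimum count 10, minimum total 15), TMM factors (0.975 to 1.02), glmQLFit and glmQLFTest with genotype as the only term, and p-values adjusted by Benjamini and Hochberg over the genes tested (threshold 0.05). The biological coefficient of variation was 0.242. Each SE was derived as the absolute log2 fold change divided by the square root of the F statistic of its test. Exact intervals (95%) and floors of 3 counts cover counting error only. The fits were checked on simulated counts with known changes and a dispersion of 0.05 for every gene. There edgeR recovered 61 of 100 2-fold and 100 of 100 4-fold changes, and 50 and 100 with the block. No simulated replicate stood apart as *atfs-1(et18)* replicate 2 does, so the check does not cover that spread.

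Same-numbered libraries of the 2 groups deviated together, with correlations of 0.548, 0.458 and 0.11 for replicates 1, 2 and 3, and *atfs-1(et18)* replicate 3 correlated better with wild type replicate 1 (0.351). Since every same-number value was over 0.1, a fit with the replicate number as a block was run beside the fit without it. Other alternatives were DESeq2 1.42.0, its size factors in edgeR, library-size scaling, no filter, a minimum count of 50, and each library left out. The gene lists and the comparison were chosen with earlier results of these data known. Named genes are *atfs-1*, *hsp-6*, the 8 largest rises and 8 largest falls past the threshold with a mean log2 CPM of at least 0 and groups that do not overlap, in each list the largest rise and fall by the same criteria, and members of lists of at most 26 genes written out by symbol. Any other gene is said to have been picked out after its values were seen. Of the symbols in the lists, 11 were not matched in the table.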

Additional observations from a re-analysis of the deposited data

Results flagged for a closer look

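Values of 3 genes are given from libraries that the comparison does not use, those of *atfs-1(null)* worms and their own wild type. They are the genes among the 8 largest rises and 8 largest falls that had over 20 counts in each *atfs-1(null)* library and a CPM there over 10 times that of any wild-type library of that experiment. Smaller differences of other named genes are not given. *C09E7.8* averaged 28 ± 4.56 CPM in *atfs-1(null)* worms and 0.0115 ± 0.0199 CPM in the wild-type worms of that experiment (SD, n = 3 each). *pud-3* averaged 32.5 ± 5.23 CPM in *atfs-1(null)* worms and 0.942 ± 0.194 CPM in those wild-type worms. *pud-4* averaged 19.1 ± 4.01 CPM in *atfs-1(null)* worms and 0.318 ± 0.0506 CPM in those wild-type worms. *pud-3* and *pud-4* overlap on chromosome V, sharing 17.3% and 24.8% of their exon bases.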

How the results depend on the processing

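Of the 88 genes named by the rule, all of which passed, 84 kept their call under all 6 alternatives other than leaving out a library and 51 under all 6 leave-one-out fits, and no direction reversed. Outside leave-one-out, *atfs-1* was lost without a filter (adjusted p = 0.0522), *prdh-1* with library-size scaling, no filter or a minimum count of 50 (0.0533, 0.0517 and 0.0503), *ptr-21* with DESeq2's size factors or no filter (0.0527 and 0.0523), and *rheb-1* without a filter (0.0663). The median log2 fold change over all genes ranged from -0.02 to 0.09. DESeq2 gave 34 detoxification, 68 cuticle and 37 signalling genes lower, and a minimum count of 50 gave 11 signalling genes lower; the cause was not tested. With the replicate block, 3202 genes (20.5%) passed, 1674 higher and 1528 lower, of which 2359 were among the 2648, and the counts that moved most were 39 detoxification genes lower and 39 cuticle genes higher and 105 lower. The block lost *atfs-1* (0.0503) and *rheb-1* (0.0507) and no other of the 88. Over the leave-one-out fits, all genes ranged from 525 to 2727 higher and 279 to 1797 lower, immune genes from 17 to 52 and 11 to 43, detoxification and stress genes from 30 to 92 and 2 to 30, metabolic genes from 5 to 35 and 4 to 17, cuticle genes from 1 to 20 and 13 to 70, and signalling genes from 17 to 118 and 3 to 40. Genes with few reads in every library were not tested, so their changes are not detectable at this depth.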

Other observations

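A few gene families outside the lists were looked at after the values were seen, and their members are given with no test of the family. Of 15 tested idpp genes, 10 fell and the median log2 fold change was -1.36. The family summed to 37.7, 59.1 and 55.5 CPM in *atfs-1(et18)* worms, against 216, 113 and 168 CPM in wild-type worms. Of 7 idpc genes, 5 fell, with *idpc-1* at 17.3, 33.2 and 27.5 CPM in *atfs-1(et18)* worms, against 101, 85.1 and 69.1 CPM in wild-type worms. Of 6 chitinases, enzymes that cut chitin, 4 fell, and *cht-2* was at 1.75, 1.47 and 1.93 CPM in *atfs-1(et18)* worms, against 11.2, 6.12 and 9.31 CPM in wild-type worms (edgeR, log2 fold change -2.37, adjusted p = 0.00384). The chitinase sum overlapped between the groups, at 84.4, 177 and 78 CPM in *atfs-1(et18)* worms, against 71.6, 80.7 and 65 CPM in wild-type worms.

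The CCT chaperonin, which folds actin and tubulin, had 4 of 8 subunits lower, and 8 of 8 with the replicate block. Its subunits summed to 2636, 2118 and 2483 CPM in *atfs-1(et18)* worms, against 3492, 3136 and 3046 CPM in wild-type worms. Of 12 zig genes, which encode secreted or membrane proteins with immunoglobulin domains, 6 fell. In the other direction, 5 of 13 algn genes, which build the sugar precursor for N-glycosylation, rose, 2 with the replicate block, and all 13 summed to 439, 460 and 436 CPM in *atfs-1(et18)* worms, against 378, 371 and 369 CPM in wild-type worms. *gly-20*, described above, encodes a later enzyme of the same glycan pathway.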
